A study of Mus musculus with 6 samples.

Results

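The TGF-beta and BMP pathway was followed through 40 genes: its ligands, the proteins that store or block them, its receptors, the Smad transducers, their inhibitors and corepressors, and a few direct targets. The genes were chosen by name, and every probe set paired with exactly 1 of these symbols was taken, which gave 94 of the 45037 probe sets that are not controls. Of these 94, 84 probe sets of 39 genes had a mean log2 value of at least 3.62, the 25th percentile of all probe sets, and were tested. The only gene without a tested probe set was Nog, which encodes the BMP antagonist noggin. GC1-Spg cells, an immortalised mouse line described as spermatogonial, received 100 nM of siRNA against the noncoding RNA mrhl in 3 replicates, or 100 nM of scrambled siRNA in 3 replicates, and RNA was taken 44 h later for 1-colour Affymetrix arrays. The question was which transcripts change when mrhl is silenced. All values come from a single cell line and every culture was transfected, while untransfected cells were not analysed here. The submitters checked silencing by quantitative PCR, which was not analysed here, and no probe set is paired with mrhl in the annotation used, so these arrays do not check the labels.

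Ligands of this family bind pairs of type I and type II receptor kinases at the cell surface. TGF-beta and activin receptors then phosphorylate Smad2 and Smad3, while BMP receptors phosphorylate Smad1 and Smad5, and each joins Smad4 to act on genes in the nucleus. Inhibitory Smads and the Smurf ubiquitin ligases switch the signal off. In the testis the family is known for roles in germ cell formation, in the balance between renewal and differentiation of spermatogonia, and in signalling by Sertoli cells. RNA levels measure none of the phosphorylation steps.

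Neither an increase nor a decrease of any pathway gene passed the test. By limma, 0 of the 84 tested probe sets had an adjusted p under 0.05, as did 0% of the 33778 probe sets tested over the whole array, and the smallest adjusted p was 0.965. An unadjusted p under 0.05 was found for 1 pathway probe set, of Acvr2a, or 1.19%, against a background of 3.44%. That count was 8 without mrhl siRNA replicate 3, 2 without scrambled siRNA replicate 1, and 0 without mrhl siRNA replicate 2 or without scrambled siRNA replicate 2. Differences were small: log2 fold changes, given throughout as mrhl siRNA minus scrambled siRNA, ran from -0.50 to 0.63, and their median was -0.07 against -0.03 over all probe sets tested. Of the 84, 50 were negative, or 59.5%, near the background of 56.2%. The median standard error was 0.204, and differences smaller and larger than that were both common. A missed threshold at this precision does not show that a gene was unchanged.

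**Figure D1:**
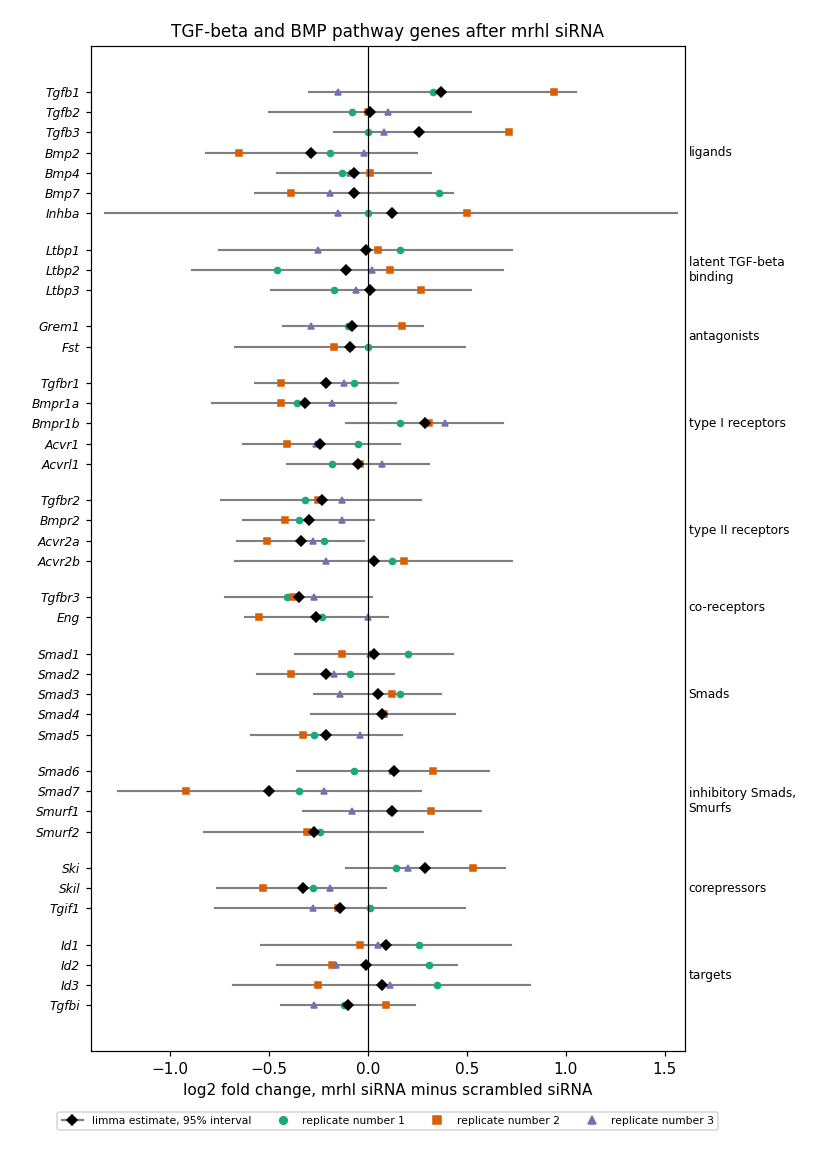
Log2 fold change (x axis, mrhl siRNA minus scrambled siRNA) of the 39 tested genes, each through its brightest probe set, grouped by role. Diamonds and bars are the limma estimate and its 95% interval, and coloured points are the differences within replicate numbers 1, 2 and 3. The interval of Acvr2a alone lies wholly below 0, from -0.66 to -0.02, before any adjustment.

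With the replicate number as a block, which removes differences between the replicate numbers, again 0 probe sets passed (limma, smallest adjusted p of a pathway probe set 0.487). An unadjusted p under 0.05 was then found for 17 of the 84, from 14 genes, or 20.2%, against a background of 10.1%. These were 12 lower and 5 higher after mrhl siRNA. Differences had the same sign in all 3 pairs in 40 of the 84, or 47.6%, against 37.5% of all probe sets tested, with 28 lower and 12 higher. The groups did not overlap in 10, or 11.9%, against 8.4%, with 3 higher and 7 lower against a background of 5.82% lower. Several of these probe sets measure the same gene, so they are not independent, and these shares carry no test.

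**Figure D2:**
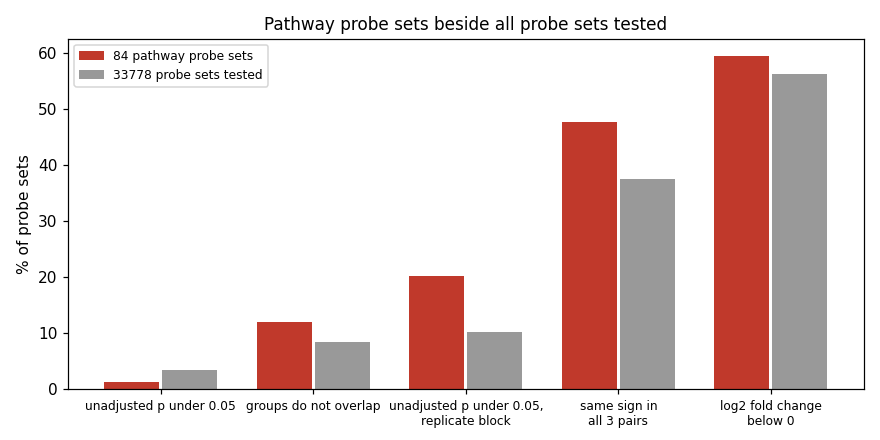
Percent of probe sets (y axis) meeting each of 5 descriptions, for the 84 tested pathway probe sets (red) and all 33778 probe sets tested (grey). The pathway stands at 1.19% against 3.44% for an unadjusted p under 0.05, and at 20.2% against 10.1% in the fit with the replicate block.

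Among ligands, read through the brightest probe sets, the TGF-beta genes Tgfb1 and Tgfb3 had the highest fold changes, and neither passed. Tgfb1 encodes the most widely expressed TGF-beta and had log2 values of 9.14, 8.92 and 8.27 after mrhl siRNA, against 8.81, 7.98 and 8.42 after scrambled siRNA, in the order of replicate numbers 1, 2 and 3. The lowest of the 6 values belonged to scrambled siRNA replicate 2, and the groups overlapped. The fold change of Tgfb1 was 0.37 (SE 0.289, limma, adjusted p = 0.965), while its dimmer probe set had -0.06. Leaving out a single array gave between 0.16, without scrambled siRNA replicate 2, and 0.62, without mrhl siRNA replicate 3. It gave 0.58 without scrambled siRNA replicate 1 and 0.19 without mrhl siRNA replicate 1. Tgfb3, another TGF-beta isoform, had 8.92, 9.04 and 8.85 after mrhl siRNA, against 8.91, 8.34 and 8.77 after scrambled siRNA. Scrambled siRNA replicate 2 again stood lowest, and the fold change was 0.26 (SE 0.184, limma, adjusted p = 0.965). The pairs of Tgfb3 differed by 0.00, 0.71 and 0.08, so nearly all of the difference lay in the pair of number 2, and the fold change was 0.10 without scrambled siRNA replicate 2. Tgfb2 had 0.01 through its brightest probe set, while its dimmer probe sets had 0.46, 0.14 and -0.38. The BMP genes gave -0.07 for Bmp4, -0.29 for Bmp2 and -0.07 for Bmp7. The group means of Bmp2 and Bmp7 were between 3.85 and 4.14, close to the level of 3.62 below which nothing was tested.

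Inhba, which encodes the beta-A subunit of activin A and inhibin A, had nearly equal group means and the widest range between replicate numbers of all tested members. It stood at 8.36, 9.12 and 10.20 after mrhl siRNA, against 8.36, 8.62 and 10.35 after scrambled siRNA. Both arrays of number 3 were high and both of number 1 low. Its fold change was 0.12 (SE 0.618, 95% interval -1.33 to 1.56), and with the replicate block the standard error was 0.162.

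Latent TGF-beta binding proteins, which hold secreted TGF-beta in the matrix until it is released, had fold changes near 0 through their brightest probe sets. Ltbp1 had 6.65, 6.68 and 7.30 after mrhl siRNA, against 6.49, 6.63 and 7.55 after scrambled siRNA, a fold change of -0.01 (SE 0.316). Ltbp2 had 8.57, 7.90 and 8.15 after mrhl siRNA, against 9.03, 7.78 and 8.13 after scrambled siRNA, a fold change of -0.11 (SE 0.334). In both genes the arrays differed by replicate number more than by group, with number 3 high for Ltbp1 and number 1 high for Ltbp2. Ltbp3 had 0.01 through its brightest probe set. Another bright probe set of Ltbp3 had 9.99, 9.94 and 9.93 after mrhl siRNA, against 10.15, 10.43 and 10.12 after scrambled siRNA, and there the groups did not overlap. Dimmer probe sets of Ltbp3 had -0.39 and -0.03. The first of these had a standard error of 0.562, or 0.105 with the replicate block.

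The secreted antagonists Grem1, which binds BMPs, and Fst, the activin-binding follistatin, differed between the groups by less than their standard errors. Grem1 had 5.37, 5.42 and 5.13 after mrhl siRNA, against 5.47, 5.25 and 5.42 after scrambled siRNA, a fold change of -0.08 (SE 0.151). Fst had 6.35, 5.59 and 5.81 after mrhl siRNA, against 6.35, 5.76 and 5.90 after scrambled siRNA, a fold change of -0.09 (SE 0.246). A dimmer probe set of Fst had 0.34. The single probe set of Nog ranged from 1.78 to 3.51 after mrhl siRNA, against 2.73 to 2.95 after scrambled siRNA, and was too dim to be tested.

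Of the receptors and co-receptors, 9 of 11 genes had negative values, with a median of -0.24, and 0 passed (limma). Negative values were found for 56.2% of all probe sets tested. Read over every tested probe set, the type I receptors had a median of -0.14 and the co-receptors of -0.26, while the type II receptors had 5 positive and 6 negative with a median of -0.04. The group values did not overlap in 4 of the 11, Acvr2a, Bmpr2, Tgfbr3 and Eng, all lower after mrhl siRNA, against 5.82% of all probe sets tested that were apart and lower. These 4 are counted through the brightest probe set only, while the background counts every probe set. Over every tested probe set, groups were apart in 0 of 13 for type I receptors, 2 of 11 for type II receptors and 2 of 3 for co-receptors. A further 8 receptor and co-receptor genes outside the 40 were 4 positive and 4 negative with a median of 0.07, and 0 of them were apart. Whether the receptors differ from the other roles was not tested.

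Acvr2a encodes a type II receptor of activins and some BMPs, and had the smallest p of all members. Its values were 7.49, 7.42 and 7.54 after mrhl siRNA, against 7.71, 7.93 and 7.82 after scrambled siRNA. Every array with mrhl siRNA lay below every control array. The mean was 7.48 ± 0.06 after mrhl siRNA and 7.82 ± 0.11 after scrambled siRNA (SD, n = 3 each), a 1.26-fold difference. The fold change on the log2 scale was -0.34 (SE 0.137), with a limma adjusted p of 0.965 and an adjusted p of 0.487 with the replicate block. The other tested probe set of Acvr2a had -0.04 (SE 0.156), so the difference rests on 1 of its 2 probe sets.

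Bmpr2, the type II receptor of BMPs, had 9.69, 9.54 and 9.81 after mrhl siRNA, against 10.04, 9.97 and 9.94 after scrambled siRNA. The groups were apart, with a fold change of -0.30 (SE 0.14, 95% interval -0.63 to 0.03). Dimmer probe sets of Bmpr2 had -0.29 and 0.13. The TGF-beta type II receptor gene Tgfbr2 had -0.23 and dimmer probe sets at 0.14 and 0.12, and Acvr2b had 0.03.

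Tgfbr3 encodes betaglycan, a co-receptor that presents TGF-beta and is also a receptor for inhibin. It had 10.25, 10.28 and 10.60 after mrhl siRNA, against 10.66, 10.66 and 10.86 after scrambled siRNA. The pairs differed by -0.41, -0.38 and -0.27, an even difference across the pairs. The fold change of Tgfbr3 was -0.35 (SE 0.159, limma, adjusted p = 0.965), and in the fit with the replicate block the SE was 0.108 and the adjusted p 0.487. Its dimmer probe set had -0.15. Eng encodes endoglin, the co-receptor best known from endothelial cells, and had 5.61, 5.41 and 5.81 after mrhl siRNA, against 5.84, 5.96 and 5.81 after scrambled siRNA. The groups of Eng were apart only by a margin smaller than the rounding of these values, since both arrays of number 3 stood at 5.81. The fold change of Eng was -0.26 (SE 0.156), or -0.16 without mrhl siRNA replicate 2.

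Of the type I receptors, Bmpr1a had the largest difference and Bmpr1b, also a BMP type I receptor, the only positive one. Bmpr1a had 8.08, 8.14 and 8.64 after mrhl siRNA, against 8.44, 8.57 and 8.82 after scrambled siRNA, a fold change of -0.32 (SE 0.20). The pairs of Bmpr1a were lower in 3 of 3, but the group ranges overlapped. Without mrhl siRNA replicate 3 the fold change of Bmpr1a was -0.50. All 5 tested probe sets of Bmpr1a were negative, from -0.39 to -0.03. Bmpr1b had 5.04, 4.77 and 5.06 after mrhl siRNA, against 4.88, 4.47 and 4.67 after scrambled siRNA, a fold change of 0.29 (SE 0.167), or 0.18 without scrambled siRNA replicate 2. The remaining type I receptors had -0.21 for Tgfbr1, -0.24 for Acvr1 and -0.05 for Acvrl1.

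**Figure D3:**
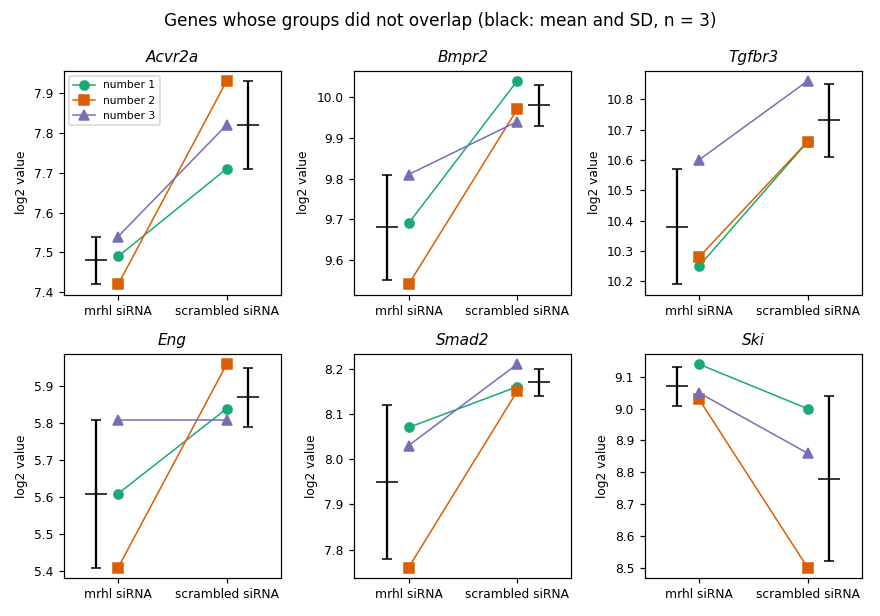
Log2 values (y axis, own scale in each panel, not starting at 0) of the 6 genes whose groups did not overlap, with mrhl siRNA left and scrambled siRNA right. Lines join arrays of equal replicate number, and black marks are group means with SD (n = 3). Acvr2a, Bmpr2, Tgfbr3, Eng and Smad2 were lower after mrhl siRNA and Ski was higher, by at most 0.35 on the log2 scale.

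The Smad transducers showed no shared direction: 3 of 5 were positive and 2 negative, with a median of 0.03. Smad2, which carries TGF-beta and activin signals, had 8.07, 7.76 and 8.03 after mrhl siRNA, against 8.16, 8.15 and 8.21 after scrambled siRNA. These groups did not overlap, and the fold change was -0.21 (SE 0.146, limma, adjusted p = 0.965), or -0.12 without mrhl siRNA replicate 2. The partner transducer Smad3 had 0.05 and the common Smad4 had 0.07. One other probe set of Smad4 had 9.82, 9.40 and 9.84 after mrhl siRNA, against 9.92, 9.88 and 10.11 after scrambled siRNA, groups that did not overlap. The BMP transducers Smad1 and Smad5 had 0.03 and -0.21. The 95% intervals of Smad1, Smad3 and Smad4 all lay between -0.37 and 0.44.

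Smad7, the inhibitory Smad that blocks both branches and is itself induced by TGF-beta, depended on the probe set. Its brightest probe set had 7.21, 7.07 and 8.15 after mrhl siRNA, against 7.56, 7.99 and 8.36 after scrambled siRNA, a fold change of -0.50 (SE 0.326). It was -0.83 without mrhl siRNA replicate 3, -0.29 without mrhl siRNA replicate 2 and -0.30 without scrambled siRNA replicate 3. The other probe set of Smad7 had 7.65, 7.78 and 7.97 after mrhl siRNA, against 7.78, 7.12 and 7.85 after scrambled siRNA, a fold change of 0.22 (SE 0.224). The 2 probe sets thus gave opposite signs, and the brightest is of a type whose probes can also match other sequences. Smad6, which mainly inhibits BMP signalling, had 0.13, and the Smad ubiquitin ligases Smurf1 and Smurf2 had 0.12 and -0.27. Smurf2 was lower in 3 of 3 pairs, by 0.24, 0.31 and 0.27, and its 3 probe sets lay together between -0.27 and -0.23.

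The corepressors Ski and Skil, which bind Smads and hold target genes off, had opposite signs, and neither passed. Ski had 9.14, 9.03 and 9.05 after mrhl siRNA, against 9.00, 8.50 and 8.86 after scrambled siRNA. The groups of Ski did not overlap, with a fold change of 0.29 (SE 0.169, limma, adjusted p = 0.965), and its dimmer probe set had 0.63, the highest of all 84. Without scrambled siRNA replicate 2 the fold change of Ski was 0.15. Skil had 9.84, 9.76 and 10.24 after mrhl siRNA, against 10.12, 10.29 and 10.43 after scrambled siRNA, a fold change of -0.33 (SE 0.18). Skil was lower in 3 of 3 pairs, though the group ranges overlapped. Whether Ski and Skil differ from each other in their response was not tested. Tgif1, a homeodomain corepressor of Smads, had -0.14.

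Direct targets showed no shared direction: 2 of 4 were positive and 2 negative, with a median of 0.03. Id1, Id2 and Id3 encode inhibitors of helix-loop-helix transcription factors and are classic targets of BMP Smads, and their fold changes were 0.09, -0.01 and 0.07. Id3 had 10.35, 9.55 and 9.30 after mrhl siRNA, against 10.00, 9.80 and 9.19 after scrambled siRNA. Id1 had 10.98, 10.47 and 10.10 after mrhl siRNA, against 10.72, 10.51 and 10.06 after scrambled siRNA. In both, number 1 was high and number 3 low in either group. A dim probe set of Id2 had 4.75, 4.55 and 4.13 after mrhl siRNA, against 4.04, 4.13 and 3.94 after scrambled siRNA, groups that touched at 4.13 to the second decimal and did not overlap. Tgfbi, the TGF-beta-induced matrix protein gene, had 5.38, 5.38 and 5.36 after mrhl siRNA, against 5.50, 5.30 and 5.63 after scrambled siRNA, a fold change of -0.10 (SE 0.145). Other probe sets of Tgfbi had 0.45, 0.00 and -0.30. The first of these had 4.65, 4.82 and 4.46 after mrhl siRNA, against 4.45, 4.42 and 3.72 after scrambled siRNA, without overlap.

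The promoters of Id2 and Id3 are shown because these genes are read as reporters of BMP Smads, and those of Inhba and Tgfb2 because these ligand genes were high in the replicate number in which Id3 was low. Sequences are from RefSeq, build GRCm38.p6, from 250 bases before to 50 after the start, and are written 5′ to 3′ on the gene's strand. Capitals mark GGCGCC, a BMP-responsive element that is its own reverse complement, CAGACA on either strand, and the palindromic Smad box GTCTAGAC.
Id2 (chr12:25096043-25096342, minus strand): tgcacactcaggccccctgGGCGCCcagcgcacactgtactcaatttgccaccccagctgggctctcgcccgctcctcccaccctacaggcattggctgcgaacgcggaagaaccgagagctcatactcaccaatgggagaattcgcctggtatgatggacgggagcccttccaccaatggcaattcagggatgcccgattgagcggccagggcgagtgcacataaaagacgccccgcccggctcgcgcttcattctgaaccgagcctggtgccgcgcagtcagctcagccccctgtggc
Id3 (chr4:136143572-136143871, plus strand): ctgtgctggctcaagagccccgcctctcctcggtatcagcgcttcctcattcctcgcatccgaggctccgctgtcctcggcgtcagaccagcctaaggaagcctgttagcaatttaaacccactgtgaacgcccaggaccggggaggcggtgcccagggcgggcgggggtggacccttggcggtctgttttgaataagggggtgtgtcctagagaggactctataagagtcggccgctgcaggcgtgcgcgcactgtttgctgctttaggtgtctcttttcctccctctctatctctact
Inhba (chr13:16011601-16011900, plus strand): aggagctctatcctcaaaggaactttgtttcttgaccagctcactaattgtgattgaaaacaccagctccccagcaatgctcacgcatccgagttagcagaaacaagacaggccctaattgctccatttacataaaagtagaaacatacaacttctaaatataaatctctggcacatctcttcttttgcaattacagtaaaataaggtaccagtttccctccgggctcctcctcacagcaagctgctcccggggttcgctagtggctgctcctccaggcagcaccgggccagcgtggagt
Tgfb2 (chr1:186705940-186706239, minus strand): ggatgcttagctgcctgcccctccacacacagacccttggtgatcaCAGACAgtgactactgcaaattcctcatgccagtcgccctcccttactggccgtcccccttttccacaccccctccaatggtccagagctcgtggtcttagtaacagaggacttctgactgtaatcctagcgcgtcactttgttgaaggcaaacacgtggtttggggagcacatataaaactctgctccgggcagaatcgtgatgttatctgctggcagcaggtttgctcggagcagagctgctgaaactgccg
Id2 held 1 GGCGCC, Tgfb2 held 1 CAGACA, and Id3 and Inhba held none of the 3 motifs. Of 38 promoters searched, from 28 of the 40 genes, 10 held GGCGCC, or 26.3%, against 11.9% of 32544 mouse promoters of the same length. The share with CAGACA was 23.7% against 20.9%. Among the 38 promoters, GTCTAGAC was found only at Smad6, in 2.63% against 0.215%. Promoters of the remaining genes were not among the 38, so the absence of a motif cannot be read for them. The core GTCT, which lies inside both GTCTAGAC and the reverse complement of CAGACA, was in 86.8% against 88%. The pathway promoters had a median GC content of 63.3%, against 53% over all promoters, and GGCGCC consists of G and C alone. A match of letters does not show that a factor binds.

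In several of these genes the replicate numbers differed from each other more than the siRNAs did. The labels do not say what arrays of equal number share. The means of the 2 arrays of each replicate number were 8.36, 8.87 and 10.27 for Inhba in numbers 1, 2 and 3, a range of 1.91. For Id3 they were 10.17, 9.67 and 9.24, and for Id1 they were 10.85, 10.49 and 10.08. Inhba was thus highest in the replicate number in which Id1 and Id3 were lowest. Tgfb2, which encodes another TGF-beta isoform, was highest in number 3 through all 4 of its probe sets, with ranges of 0.55 to 1.39 between number means. The median range between number means was 0.45 for the pathway probe sets, against 0.37 for all probe sets tested.

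An F test of the replicate number beside the group, chosen after seeing the data, passed 0 of the 84 probe sets and 0% of all tested (limma, smallest adjusted p = 0.124). An unadjusted p under 0.05 was found for 30 of the 84, or 35.7%, against a background of 23.1%. With a trended and robust variance model it passed 19 of the 84, from 12 genes, or 22.6%, against a background of 8.54%. Of the 12 genes, 8 were highest in number 3: Inhba, Tgfb2, Ltbp1, Tgfbr2, Acvr2b, Smad7, Smurf2 and Tgif1. The other 4, Ltbp2, Ltbp3, Id1 and Id3, were highest in number 1. With this model the limma adjusted p of Inhba was 0.00134 and that of Id1 was 0.00871. What differed between the replicate numbers was not tested.

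**Figure D4:**
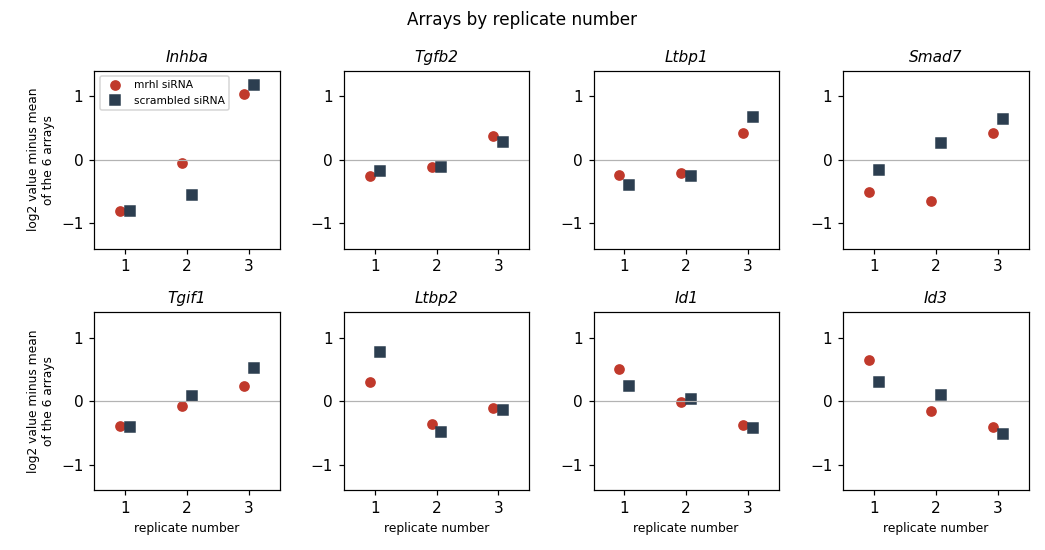
Log2 value of each array minus the gene's mean over the 6 arrays (y axis) by replicate number (x axis), for mrhl siRNA (red circles) and scrambled siRNA (dark squares). Inhba, Tgfb2, Ltbp1, Smad7 and Tgif1 stood highest in number 3, and Ltbp2, Id1 and Id3 in number 1, in both groups.

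Single arrays held the extreme values unevenly. Over the 84 probe sets, scrambled siRNA replicate 2 was the lowest of the 6 arrays in 23, or 27.4%, against 18% of all probe sets tested. Scrambled siRNA replicate 3 was the highest in 29, or 34.5%, against 22.8%. For mrhl siRNA replicate 2 the share of highest values was 3.57%, against 11.2% over all probe sets tested. The pair of number 2 gave the largest absolute difference for Tgfb1, Tgfb3, Ski, Skil, Smad7, Smad2, Eng, Bmpr2 and Acvr2a. Without both arrays of number 2, fold changes were 0.09 for Tgfb1, 0.04 for Tgfb3, 0.17 for Ski, -0.24 for Skil and -0.28 for Smad7. They were -0.13 for Smad2, -0.12 for Eng, -0.24 for Bmpr2 and -0.25 for Acvr2a. All 9 kept their sign, but for all except Tgfb1 this was fixed beforehand, because their pairs all had the same sign. Smaller values than with all 6 arrays follow from choosing genes whose pair of number 2 differed most. That pair also gave the largest absolute difference for other members, among them Bmpr1a (-0.44), Tgfbr1 (-0.44), Acvr1 (-0.41), Bmp2 (-0.65) and Inhba (0.50).

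Probe sets of the same gene often disagreed. Of 25 genes with several tested probe sets, 14 had both signs and 11 had 1 sign, 8 of them negative throughout. Opposite signs that lay over 0.5 apart were found in 3 genes. The probe sets of Tgfb2 lay between -0.38 and 0.46, those of Tgfbi between -0.30 and 0.45, and those of Smad7 between -0.50 and 0.22. Probe sets can lie in different transcript ends and can share probes with other sequences, so a gene's value here is that of 1 probe set.

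**Figure D5:**
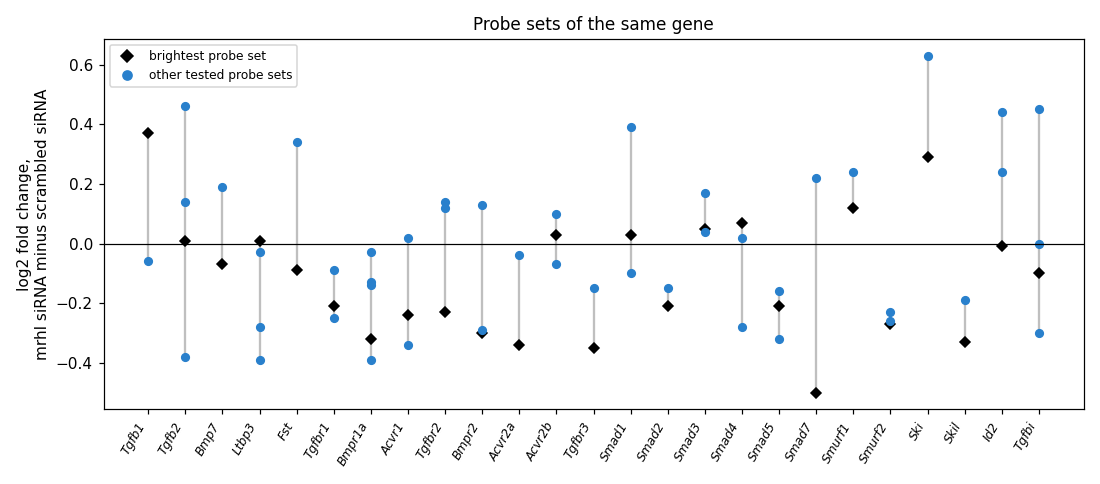
Log2 fold change (y axis, mrhl siRNA minus scrambled siRNA) of every tested probe set of the 25 genes that have several. Black diamonds are the brightest probe set of each gene, blue circles the others, and grey lines their span. Tgfb2, Tgfbi and Smad7 span 0 by the widest margins, while Bmpr1a and Smurf2 lie wholly below 0.

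Beyond the 40 genes, a longer list of 104 pathway genes was read the same way. It held 80 tested genes with 170 tested probe sets, of which 0 passed (limma), 36 genes being positive and 44 negative with a median of -0.06. An unadjusted p under 0.05 was found for 4 of the 170, or 2.35%, and groups did not overlap in 14, or 8.24%, against backgrounds of 3.44% and 8.4%. With the replicate block the share was 7.06%, against 10.1%. Through the brightest probe set, groups were apart in 6 genes. Twsg1, which encodes a secreted modulator of BMPs, had 9.08, 9.02 and 9.32 after mrhl siRNA, against 9.43, 9.42 and 9.67 after scrambled siRNA. Its fold change was -0.37 (SE 0.155), even across the pairs, though its other 3 probe sets ran from -0.34 to 0.01. The Smad ubiquitin regulators Usp15 and Rnf111 had -0.14 and -0.12. Of the higher genes, Bmp10 had 0.25, Nodal 0.18 and the receptor-associated Strap 0.04. Another probe set of Strap had -0.55, and the groups of both Strap and Rnf111 were apart by less than the rounding of the values.

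The other probe sets with an unadjusted p under 0.05, named after their values were seen, were not the brightest of their genes. They belonged to Ppm1a, a phosphatase that acts on Smads, with -0.77, to the deubiquitinase Usp15, with -0.38, and to Pmepa1, a TGF-beta target that restrains signalling, with 0.42. Their brightest probe sets had -0.09 for Ppm1a, -0.14 for Usp15 and -0.18 for Pmepa1. The sign of Pmepa1 thus turned with the probe set.

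As to the cells, 13 of 15 markers of undifferentiated spermatogonia on the array were bright enough to test, but of 7 general germ cell markers only Nanos1 (-0.28) was, and Ddx4, Dazl, Dppa3, Mael, Tdrd1 and Tex101 were not. Bright enough means only a mean of at least 3.62. The median level of all probe sets, 5.23, was reached by 7 of 15 markers of undifferentiated and 1 of 9 of differentiating spermatogonia. It was reached by 1 of 7 for germ cells, 9 of 12 for Sertoli cells and 1 of 6 for Leydig cells. For peritubular myoid cells and fibroblasts it was 8 of 12, and for blood and endothelial cells 3 of 7. The germ cell markers summed, as log2 of the summed linear values, to 6.80 to 7.36 after mrhl siRNA and 7.29 to 7.39 after scrambled siRNA, and those of undifferentiated spermatogonia to 10.89 to 11.32 after mrhl siRNA and 10.94 to 11.41 after scrambled siRNA. All 12 Sertoli cell markers were bright enough, with a summed level of 12.67 to 12.98 after mrhl siRNA and 12.88 to 13.08 after scrambled siRNA. Markers of peritubular myoid cells and fibroblasts were positive in 9 of 11, with summed levels of 14.45 to 14.61 after mrhl siRNA and 14.09 to 14.53 after scrambled siRNA. Leydig markers were bright enough in 5 of 6, summing to 6.97 to 7.33 after mrhl siRNA and 6.94 to 7.42 after scrambled siRNA. Blood and endothelial markers were bright enough in 5 of 7, without Ptprc and Pecam1, and summed to 9.48 to 9.87 after mrhl siRNA and 9.58 to 9.86 after scrambled siRNA. Of differentiating spermatogonia, 7 of 9 markers were bright enough, summing to 9.72 to 10.76 after mrhl siRNA and 10.04 to 10.81 after scrambled siRNA. A sum of linear values is weighted to its brightest gene, which for this list was Ccnd2 (mean log2 value 10.17). For undifferentiated spermatogonia it was Itga6 (10.30), for Sertoli cells Clu (12.22) and for germ cells Nanos1 (6.73). Through the brightest probe sets, positive and negative genes numbered 6 and 7 for undifferentiated and 2 and 5 for differentiating spermatogonia, 5 and 7 for Sertoli cells, 2 and 3 for Leydig cells, and 3 and 2 for blood and endothelial cells. The 2 genes with the smallest p in each list, again through the brightest probe sets, were Dhh (-0.63), Gdnf (-0.37), Col3a1 (2.04), S100a4 (0.23), Hsd17b3 (-0.29), Cyp11a1 (0.38), Cd14 (-0.37), Kdr (-0.29), Cdh1 (0.22), Zbtb16 (0.14), Dnmt3b (-0.37) and Kit (-0.39), and 0 passed (limma). Of genes named after their values were seen, Etv5 was lower in 3 of 3 pairs in each of its 3 tested probe sets (-0.38, -0.39 and -0.97), and Stra8 had 0.43. The standard errors of Etv5 were 0.413, 0.437 and 0.53, and its groups overlapped in each probe set. With the replicate block these errors were 0.109, 0.154 and 0.155, and the smallest adjusted p of Etv5 was 0.487 (limma). Stra8 had a standard error of 0.365, overlapping groups and pairs of -0.69, 1.30 and 0.68. Its mean of 3.69 lay near the filter level of 3.62. All cultures were of a single cell line, so these markers are not read as shares of tissue cell types. Whether a subset of the cells or the RNA per cell differed cannot be told from such samples. The part of these markers in the pathway's values was not tested.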

How the data were processed

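Each of the 6 cultures was measured on its own array. The deposited values are log2 expression values per probe set. The submitters' processing notes name GCOS and PLIER, without version or settings. How background and differences between arrays were handled is not given in the sources used here. Array medians differed by at most 0.11, and no further normalization was applied. Control rows, 64 of 45101, were left out. Probe sets were named from GEO's platform annotation, which gave 34945 of them 1 symbol, 932 several and listed no entry for 9160; the symbols of all 94 pathway probe sets matched the mouse RefSeq gene table, and 1 further probe set shared between a member and another gene was not used. Probe sets with a mean under the 25th percentile, 3.62, were left out of the tests.

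The tests used limma 3.58.1 in R 4.3.3 over all 33778 probe sets, with Benjamini-Hochberg adjustment and a threshold of 0.05. A gene was read through its brightest tested probe set. Per-array values were given for members whose groups do not overlap, for the smallest p and largest difference in each role, and for the 5 widest spreads between replicate numbers. Deviations of arrays with equal replicate numbers correlated at 0.534, 0.201 and 0.567, each over 0.1, so the numbers were read as pairs, from the data rather than the labels. Arrays with unequal numbers gave -0.518 to 0.0684. Deviations were taken from the group mean, so high values at equal numbers push those at unequal numbers down. The unequal values are thus no separate evidence of pairing. The main fit held no block, because the labels do not say what equal numbers share. Its standard errors thus include differences between the replicate numbers. Their median over all probe sets tested was 0.192, against 0.132 with the block. The labels call the replicates biological. A p-value of the group difference sets it against the spread of arrays within a group. With the block, it is set against the spread of the differences over the replicate numbers. Alternatives covered normalization, filter, replicate block, variance model, array weights, left-out arrays and averaging over the probe sets of a gene. The test of the replicate number was added after seeing the data. Members and lists were chosen with earlier results of these data known. Figures were drawn with matplotlib 3.10.9.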

Additional observations from a re-analysis of the deposited data

How the results depend on the processing

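No pathway probe set passed an adjusted p of 0.05 (limma) for the group difference under any alternative run, and over the whole array 0 passed except in a fit added after seeing the data, with the replicate block plus a trended and robust variance model, where 2 did. The count of pathway probe sets at an unadjusted p under 0.05, 1 as reported, was 1 with quantile normalization, 2 with array medians set equal, 3 without the filter, 4 with the filter at the median level, 6 with the trended and robust model, 8 with array weights, 17 with the replicate block and 19 with that block plus the trended and robust model. It was 0, 0 and 5 without both arrays of replicate number 1, 2 and 3, and ran from 0 to 8 with a single array left out. The count differing between replicate numbers, 0 as reported, was 11 with the filter at the median level, where fewer probe sets were tested, 19 with the trended and robust model, and 0 to 2 with a single array left out, the 2 being without mrhl siRNA replicate 1. The number of probe sets with groups apart ran from 7 to 13 over other normalizations and filters.

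For 19 named genes, 319 of 341 alternative fold changes kept their direction and 22 did not, and 0 passed. All 22 belonged to genes whose reported values were within their standard error. Part of the 319 was fixed beforehand, since a change of filter, replicate block or variance model leaves these fold changes as they are. Where the groups do not overlap, leaving out arrays cannot turn the sign either. Averaging a gene's probe sets gave 0.13 for Fst and 0.01 for Tgfbi. Inhba had -0.32 with array weights and -0.08 without number 2. Ltbp1 had 0.01 after quantile normalization and 0.11 without number 3. Without number 1, Ltbp2 had 0.07 and Id3 -0.07, and without number 3, Grem1 had 0.03. Leaving out single arrays gave -0.37 to 0.25 for Ltbp2, -0.14 to 0.01 for Grem1, -0.30 to 0.09 for Fst, -0.37 to 0.74 for Inhba, -0.22 to 0.32 for Ltbp1 and -0.24 to 0.29 for Id3. The replicate block changed no call; the cause of these shifts was not tested. The number of arrays limits the precision.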
